A study of Mus musculus with 10 samples.

Results

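Expression of 9 genes of the methionine cycle and one-carbon metabolism (Mat1a, Gnmt, Bhmt, Cbs, Cth, Ahcy, Pemt, Shmt1 and Shmt2) was compared in mouse livers with and without metformin. The genes were fixed by symbol and found through the accessions of the array probes. All 9 were among the 14531 named genes tested, and 15 probes of the array measured them. RNA came from the livers of 10 male mice, 1 array per mouse. All 10 carried the miR-221 transgene (strain TG221, background B6D2F2), whose promoter is not given in the sources used here, and all received 20% (v/v) CCl4, a liver toxin, by gavage 3 times a week for 14 weeks from an age of 4 to 6 weeks. In 6 mice metformin was given daily at 300 mg/kg from 3 weeks after CCl4 began (metformin mice 1 to 6), and 4 mice had CCl4 without it (CCl4 mice 1 to 4). The end-point was at 24 weeks. The labels name both liver and hepatocellular carcinoma, and no mouse without CCl4 is among the 10.

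The methionine cycle turns methionine into S-adenosylmethionine (SAM), the methyl donor of most methylation reactions, and through S-adenosylhomocysteine into homocysteine. Homocysteine is either remethylated to methionine, with betaine or a folate as methyl source, or passed through transsulfuration to cysteine, which feeds glutathione. Hepatocytes run this cycle at a high rate, with a liver form of the SAM synthase and several enzymes that few other tissues express at that level, and serine hydroxymethyltransferases supply the one-carbon units carried by folate.

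Promoter windows are shown for the members whose signal passed the test below and that have a RefSeq entry (Gnmt, Cbs and Shmt2), and for Bhmt because its window holds 1 of the searched motifs 3 times. Mat1a and Cth have no entry. Each line gives the 250 bases before the annotated start in GRCm38.p6, read 5′ to 3′ on the gene's strand, with motif matches in capitals.
Gnmt, chr17:46729166-46729415, minus strand: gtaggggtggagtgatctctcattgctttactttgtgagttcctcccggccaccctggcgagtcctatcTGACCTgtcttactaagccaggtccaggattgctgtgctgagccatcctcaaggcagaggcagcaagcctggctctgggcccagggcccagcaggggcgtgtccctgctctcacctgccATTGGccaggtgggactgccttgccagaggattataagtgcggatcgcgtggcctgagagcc
Cbs, chr17:31637206-31637455, minus strand: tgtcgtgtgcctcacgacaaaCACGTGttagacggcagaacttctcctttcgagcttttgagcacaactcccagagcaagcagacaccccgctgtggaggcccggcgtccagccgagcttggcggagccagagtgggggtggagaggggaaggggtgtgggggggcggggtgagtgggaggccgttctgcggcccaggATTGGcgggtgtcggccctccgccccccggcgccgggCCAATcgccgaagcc
Shmt2, chr10:127522445-127522694, minus strand: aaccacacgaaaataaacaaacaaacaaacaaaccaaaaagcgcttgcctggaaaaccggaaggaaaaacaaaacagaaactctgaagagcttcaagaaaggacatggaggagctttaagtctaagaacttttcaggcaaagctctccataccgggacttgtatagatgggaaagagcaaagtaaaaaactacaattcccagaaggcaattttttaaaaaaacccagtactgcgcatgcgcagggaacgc
Bhmt, chr13:93637759-93638008, minus strand: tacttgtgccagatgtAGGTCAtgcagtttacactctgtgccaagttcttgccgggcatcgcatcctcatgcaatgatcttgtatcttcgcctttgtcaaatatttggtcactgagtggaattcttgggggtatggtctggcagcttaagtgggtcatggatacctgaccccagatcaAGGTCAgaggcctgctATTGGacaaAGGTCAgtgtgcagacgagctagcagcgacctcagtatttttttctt
The motifs searched on both strands were the E-box CACGTG, the ATF4 composite element TGATGNAAT, the antioxidant response element core TGACNNNGC, the D-box TTATGNAA, the nuclear receptor hexamer AGGTCA, the TATA box TATAAA and the CCAAT box CCAAT. No match overlapped another motif's match. The E-box, the target sequence of many basic helix-loop-helix factors, stood 229 bases before the start of Cbs and in no other member window, and 6.02% of the 32851 RefSeq windows hold it. The hexamer AGGTCA (14% of all windows) stood in Gnmt, 3 times in Bhmt (234, 72 and 47 bases before the start) and in Ahcy. The CCAAT box (33.8% of windows) stood in Gnmt, Bhmt, Cbs, Ahcy, Shmt1 and the second of 2 Pemt windows. The ATF4 element (0.816% of windows), the antioxidant core (10.2%), the D-box (3.07%) and the TATA box (12.4%) matched in none of the member windows. The base composition of the 4 printed windows differed, from 40.8% GC with 7 CpG in Shmt2 to 68% with 21 CpG in Cbs, against a median of 52.4% over all windows. A match or its absence describes these letters and says nothing of a factor's binding.

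Of the 9 members, Cth, Gnmt, Cbs and Shmt2 were lower at an adjusted p below 0.05 in limma and 0 were higher, while Bhmt, Shmt1, Ahcy, Mat1a and Pemt did not pass. Over all named genes 19.7% were lower, 27.7% higher and 47.4% changed in either direction, so the share of members called, 44.4%, was near that of all genes. The median member difference was -0.34 on the log2 scale, against 0.10 over all 22184 features tested. Only Cth had metformin and CCl4 mice that did not overlap, where 35.9% of named genes had such groups and 14.1% had them with lower metformin values. All 9 members were well above background on all 10 arrays. Values below are log2 signal over the array's 75th percentile of signal, and differences are metformin minus CCl4 (SE, n = 6 and 4).

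**Figure D1:**
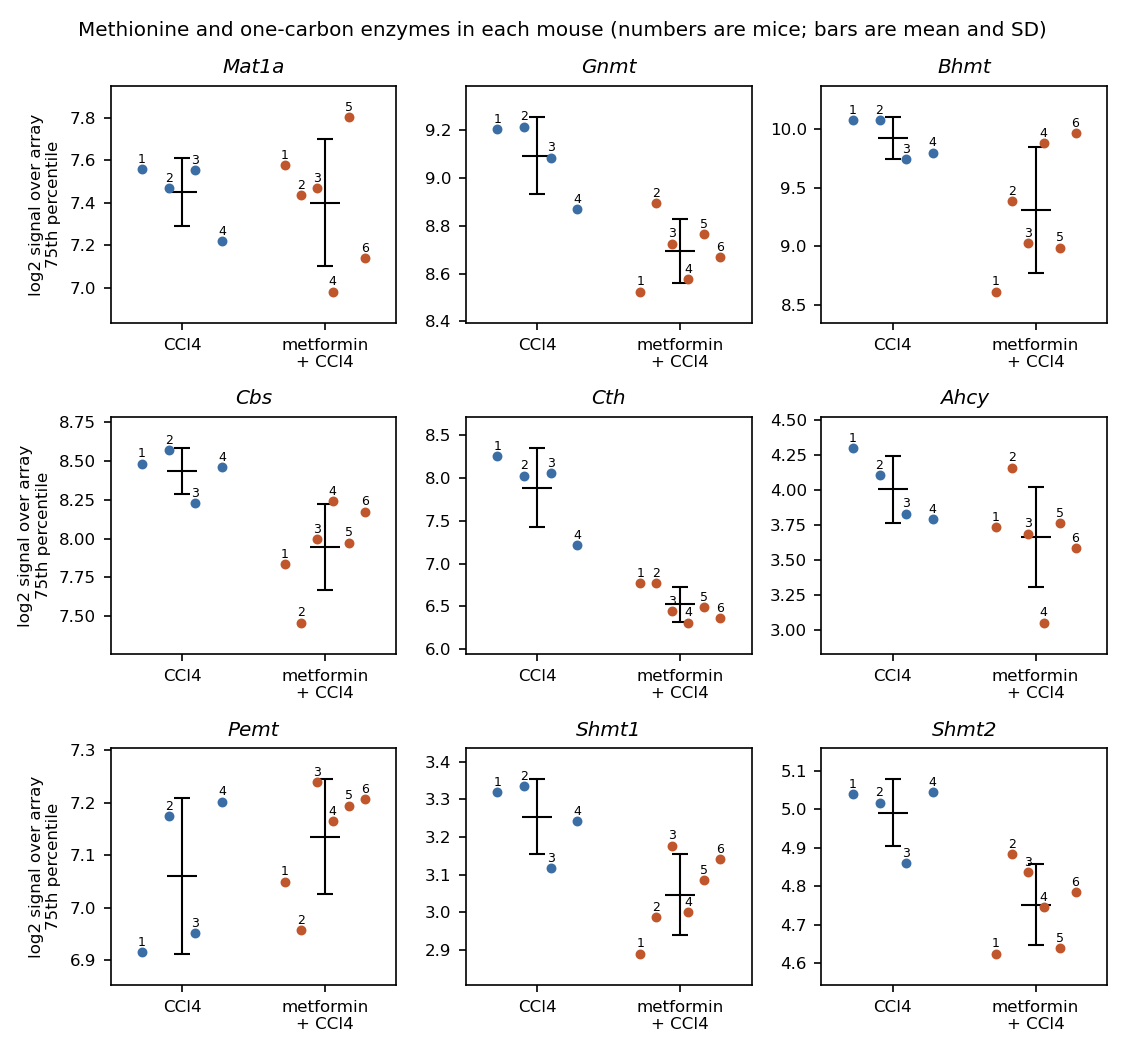
Each panel plots 1 gene. The y axis is log2 signal over the array's 75th percentile, points are mice (blue CCl4, orange metformin plus CCl4; numbers are the mice) and bars are mean and SD. In the Cth panel the 6 metformin mice reach up to 6.77 and the 4 CCl4 mice down to 7.22; in the other 8 panels the groups overlap.

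Both a scaling and a slide bear on every value. The metformin arrays were all on 1 slide and the CCl4 arrays all on another, so slide, scan and treatment cannot be told apart. These are bulk livers, in which fewer cells of a type and less RNA per cell cannot be told apart. When arrays were scaled to 8 spike-in probes in place of the 75th percentile, the median of all features moved from 0.10 to -0.45 and all 9 members were called lower, where 45.4% of named genes were lower and 3.8% higher. Relative to the median of all features, which that scaling moves with the members, Cth was at -1.46, Cbs at -0.59, Gnmt at -0.50 and Shmt2 at -0.34, while Pemt was at -0.026 and Mat1a at -0.15. Within groups the arrays correlated at 0.984 to 0.993 across features and between groups at 0.963 to 0.976.

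**Figure D2:**
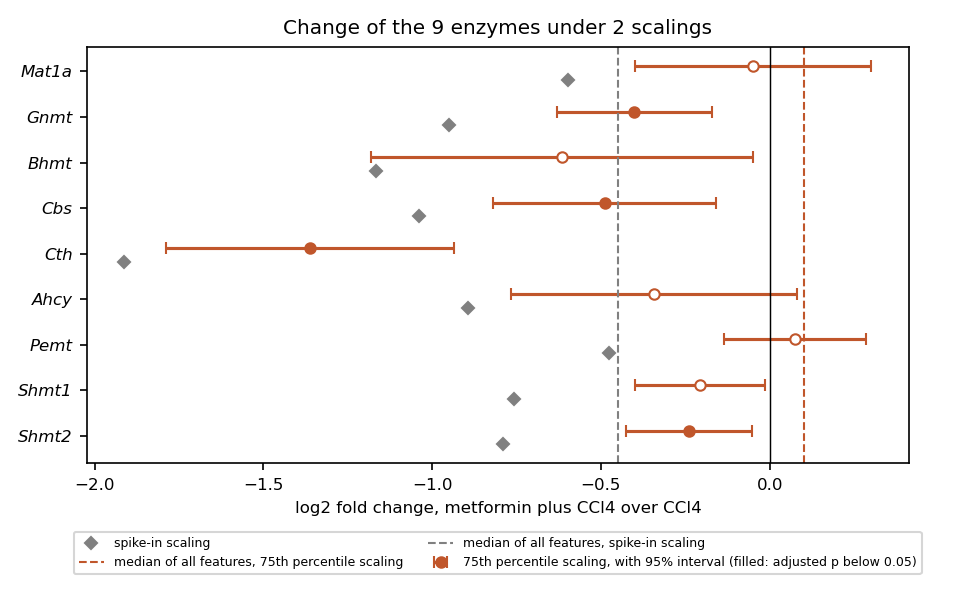
The x axis is the log2 fold change of metformin plus CCl4 over CCl4 for the 9 genes. Orange circles with 95% intervals use the 75th percentile scaling (filled where the adjusted p in limma is below 0.05) and grey diamonds the spike-in scaling; dashed lines are the medians of all features, 0.10 and -0.45. Every gene moves left by a like amount between the scalings, and Cth is the farthest left under both.

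Mat1a, which encodes the liver form of the SAM synthase, had no detectable difference. It lay between 6.98 and 7.80 in metformin mice (median 7.45) and at 7.56, 7.47, 7.55 and 7.22 in CCl4 mice 1 to 4. The metformin mice thus spread to both sides of the CCl4 mice, with mice 1 and 5 above and mice 4 and 6 below all of them. The difference was -0.049 ± 0.16 (95% interval -0.40 to 0.30, adjusted p = 0.824 in limma), and its sign turned with slide row as a covariate (0.057). Mat2a, the synthase form of other tissues and of growing cells, was in contrast lower at -1.03 ± 0.23 (adjusted p = 0.00491 in limma; -1.66 by its other kept probe). Mat2a lay at 6.72, 6.66, 6.76 and 6.06 in CCl4 mice and at 5.32, 5.35, 5.08, 5.53, 6.33 and 5.51 in metformin mice, where only metformin mouse 5 reached the CCl4 range.

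The ratio of Mat1a to Mat2a within each array does not depend on how arrays are scaled to each other. Set against the mean of the CCl4 mice, its log2 was 1.36, 1.19, 1.49, 0.55, 0.57 and 0.73 in metformin mice 1 to 6 and -0.062, -0.093, -0.11 and 0.26 in CCl4 mice. Every metformin mouse lay above every CCl4 mouse. The difference was 0.98 ± 0.22 (exact permutation test over 210 splits, two-sided, p = 0.00952, adjusted p = 0.0444 over the 7 gene pairs compared). Without single mice this and the other ratios kept their signs, and the smallest p such smaller designs allow limits what their adjusted p can show. This ratio lost its call in 8 of the 10 fits without 1 mouse (highest adjusted p = 0.0556 in the exact test). The ratios of Bhmt to Mtr and of Gnmt to Pemt, given below, also each lost theirs in 8 of 10 (highest adjusted p = 0.0556 and 0.0741 in the exact test).

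Ahcy encodes the enzyme that splits S-adenosylhomocysteine, the product of all SAM-dependent methylation. It lay between 3.05 and 4.16 in metformin mice (median 3.71) and at 4.30, 4.11, 3.83 and 3.79 in CCl4 mice. Metformin mouse 2 was within the CCl4 range and the other 5 metformin mice were below it. The difference of -0.34 ± 0.19 did not pass (95% interval -0.77 to 0.082, adjusted p = 0.168 in limma), and it was -0.060 with slide row as a covariate. Ahcyl1, a relative of Ahcy without that activity, was lower at -0.48 ± 0.077, and Adk, the adenosine kinase that clears the other product of the Ahcy reaction, was higher at 0.56 ± 0.083 (adjusted p = 7.87e-04 and 4.55e-04 in limma). The second kept probe of Adk was at -0.098, so its rise rests on 1 probe. Whether the Ahcy probe also measures related sequences was not tested.

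Among the enzymes that spend SAM, Gnmt fell and Pemt had no detectable difference. Gnmt, which methylates glycine and is regarded as the liver's main outlet for surplus SAM, lay between 8.52 and 8.89 in metformin mice (median 8.70) and at 9.20, 9.22, 9.09 and 8.87 in CCl4 mice. Metformin mouse 2 was above CCl4 mouse 4, and the other 5 metformin mice were below all CCl4 mice. The difference was -0.40 ± 0.10, a 1.32-fold lower mean (adjusted p = 0.00974 in limma). This call was kept in all 10 fits without 1 mouse (highest adjusted p = 0.0348) and lost once slide row was taken as a covariate (-0.38, adjusted p = 0.0638) and within slide row 1 (adjusted p = 0.124), the row that holds metformin mice 1 and 2 and all CCl4 mice.

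Pemt makes phosphatidylcholine by methylating phosphatidylethanolamine, and its mice were mixed. It lay between 6.96 and 7.24 in metformin mice (median 7.18) and at 6.92, 7.17, 6.95 and 7.20 in CCl4 mice. The difference was 0.075 ± 0.095 (95% interval -0.14 to 0.29, adjusted p = 0.548 in limma), and it turned to -0.072 after quantile normalization and -0.48 after spike-in scaling. Its 3 probes gave 0.19, -0.055 and 0.075, none of which passed. The ratio of Gnmt to Pemt was lower with metformin by -0.48 ± 0.14 on the log2 scale (exact permutation p = 0.0143, adjusted p = 0.0444). It was -0.56, -0.096, -0.55, -0.62, -0.46 and -0.57 in metformin mice 1 to 6 against 0.26, 0.0080, 0.10 and -0.37 in CCl4 mice, with metformin mouse 2 and CCl4 mouse 4 in the overlap. After quantile normalization the ratio was -0.41 and its adjusted p = 0.0583 in the exact test.

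Bhmt, the enzyme that remethylates homocysteine with betaine, differed more between metformin mice than between CCl4 mice. It lay at 8.61, 9.39, 9.03, 9.88, 8.99 and 9.96 in metformin mice 1 to 6 and at 10.08, 10.08, 9.75 and 9.80 in CCl4 mice. Metformin mice 4 and 6 were within the CCl4 range and the other 4 below it. The SD was 0.53 in metformin and 0.18 in CCl4 mice. The difference of -0.62 ± 0.26 did not pass (95% interval -1.18 to -0.049, adjusted p = 0.0721 in limma), and it passed without metformin mouse 4 (-0.73, adjusted p = 0.0367) or mouse 6 (-0.75, adjusted p = 0.0268), after median scaling (adjusted p = 0.0350) and after quantile normalization (adjusted p = 0.0291).

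The 3 Bhmt probes did not give 1 answer. The probe used for the gene, the brightest, gave -0.62, another gave -1.02 ± 0.31 (adjusted p = 0.0229 in limma when put in its place), and the third gave -0.16 ± 0.20 (adjusted p = 0.541). By the second of these, metformin mice lay between 6.67 and 8.27 and CCl4 mice between 8.16 and 8.84. The size of the Bhmt difference therefore depended on the probe. Whether these probes also measure Bhmt2, the neighbouring paralog that uses S-methylmethionine, was not tested; Bhmt2 itself was at -0.099 ± 0.12 (adjusted p = 0.541), with a sign that turned to 0.0025 with slide row as a covariate. The ratio of Bhmt to Bhmt2 differed by -0.52 ± 0.24 and did not pass (exact permutation p = 0.0619, adjusted p = 0.0867).

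**Figure D3:**
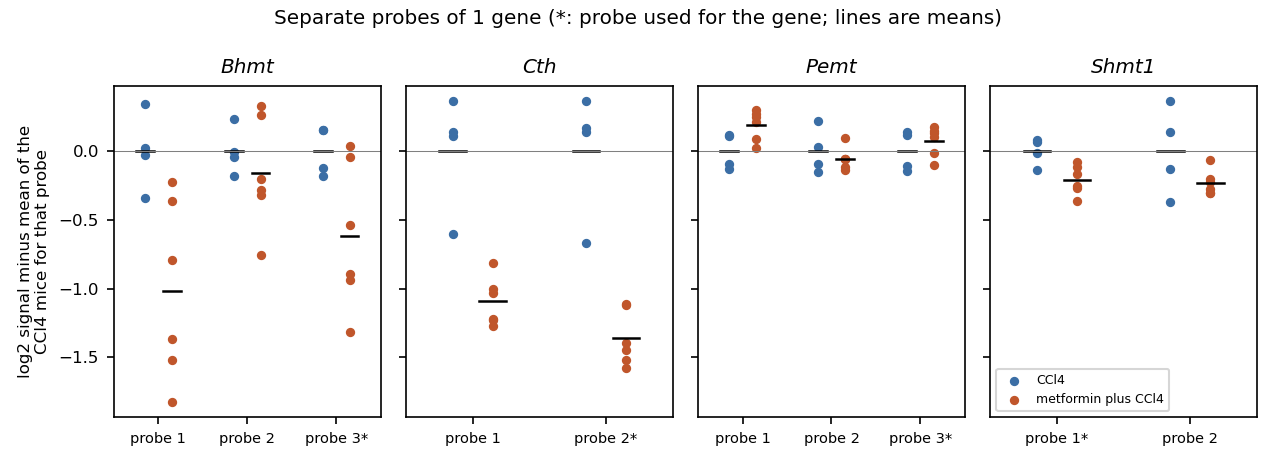
Each panel plots a gene with more than 1 probe. The y axis is the log2 signal of a probe minus the mean of the CCl4 mice for that probe, points are mice (blue CCl4, orange metformin plus CCl4), lines are means, and an asterisk marks the probe used for the gene. Both Cth probes separate the groups, at -1.09 and -1.36, while the Bhmt probes range from -1.02 to -0.16.

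Mtr, methionine synthase, remethylates homocysteine with a folate and vitamin B12. It lay at 0.52, 0.46, 0.39 and 0.50 in CCl4 mice and at 0.52, 0.59, 0.99, 0.92, 0.90 and 0.96 in metformin mice. Metformin mouse 1 was barely above the highest CCl4 mouse, and mice 3 to 6, which share a slide row, were clearly above. The difference of 0.35 ± 0.11 passed (adjusted p = 0.0291 in limma), but its other kept probe gave -0.011 and spike-in scaling -0.21, so the rise rests on 1 probe and on the scaling. The call was also lost in 6 of the 10 fits without 1 mouse (metformin mouse 3, 4, 5 or 6 or CCl4 mouse 2 or 3; highest adjusted p = 0.0758 in limma). The ratio of Bhmt to Mtr was lower in every metformin mouse than in every CCl4 mouse, by -0.96 ± 0.25 (exact permutation p = 0.0190, adjusted p = 0.0444). With the mean of each gene's probes it was -0.76 and did not pass (adjusted p = 0.0667 in the exact test).

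Cth, cystathionine gamma-lyase, which releases cysteine and also makes hydrogen sulfide, had the largest difference of the 9 genes. It lay between 6.31 and 6.77 in metformin mice (median 6.47) and at 8.25, 8.03, 8.05 and 7.22 in CCl4 mice. No metformin mouse reached CCl4 mouse 4, which was lowest in its group. The difference was -1.36 ± 0.19, a 2.57-fold lower mean (95% interval -1.79 to -0.93, adjusted p = 3.55e-04 in limma), and 94.9% of named genes changed by less in size. Without 1 mouse the difference ran from -1.58 to -1.24 and stayed called. Its other probe gave -1.09 ± 0.18, also with groups that did not overlap (adjusted p = 7.84e-04 in limma when put in its place). Cth kept its direction in all 25 alternative settings run, and its call in each of them but the authors' deposited table, which was not tested. That table holds only probes that passed a false discovery rate and fold change limit, and spike-in scaling moves every difference down. Neither is therefore a check on the lower Cth.

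Cbs, cystathionine beta-synthase, catalyses the step before Cth and commits homocysteine to transsulfuration. It lay between 7.46 and 8.24 in metformin mice (median 7.99) and at 8.48, 8.57, 8.23 and 8.46 in CCl4 mice. Metformin mouse 4 was just above CCl4 mouse 3, and the other 5 metformin mice were below all CCl4 mice. The difference was -0.49 ± 0.15, a 1.40-fold lower mean (adjusted p = 0.0214 in limma). It was lost without CCl4 mouse 1 (-0.47, adjusted p = 0.0519) or CCl4 mouse 2 (-0.44, adjusted p = 0.0631), and held within slide row 1 (adjusted p = 0.0181). In the authors' deposited table of filtered log2 values, 3 of the 15 member probes are present, with differences of group means of -0.66 for Cbs and -1.26 and -1.52 for Cth.

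The ratio of Cbs to Cth sets the first step of transsulfuration against the second. Relative to the CCl4 mean, the log2 ratio of Cbs to Cth was 0.51, 0.14, 1.01, 1.38, 0.94 and 1.26 in metformin mice and -0.32, -0.0040, -0.37 and 0.69 in CCl4 mice. CCl4 mouse 4 lay above metformin mice 1 and 2. The difference of 0.87 ± 0.31 did not pass the exact test (p = 0.0333, adjusted p = 0.0583), passed when fitted with limma (adjusted p = 0.0256), and without CCl4 mouse 4 was 1.10 (adjusted p = 0.0417 in the exact test). Other settings weakened it. Within slide row 1 it was 0.33, and in the fits without 1 mouse its highest adjusted p was 0.125 in the exact test. At the branch point, the ratio of Bhmt to Cbs, remethylation against transsulfuration, differed by -0.13 ± 0.25 (exact permutation p = 0.624, adjusted p = 0.624).

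**Figure D4:**
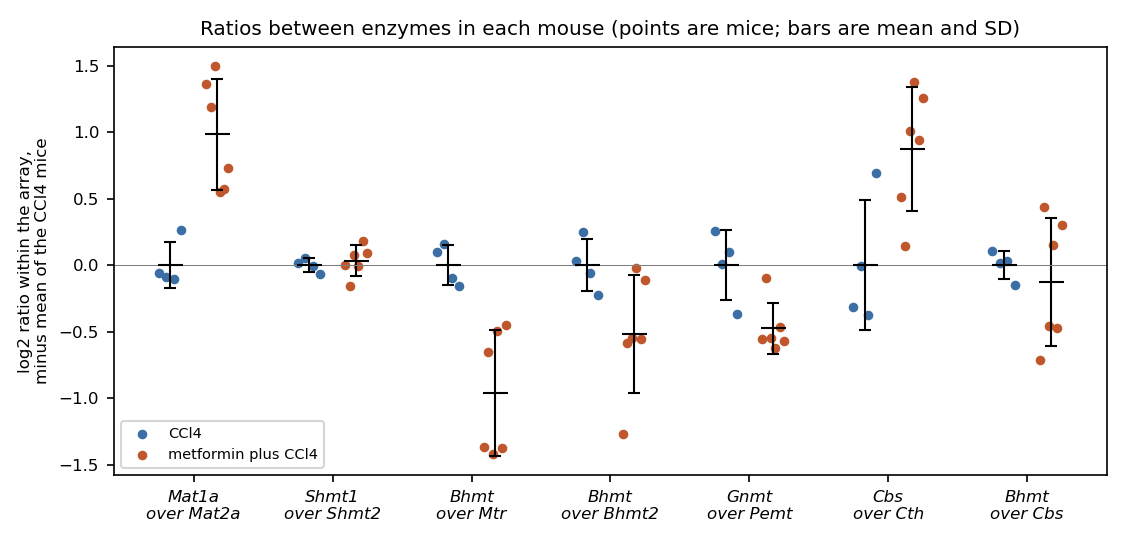
The y axis is the log2 ratio of 2 genes on 1 array minus the mean of the CCl4 mice, for the 7 gene pairs on the x axis. Points are mice (blue CCl4, orange metformin plus CCl4) and bars are mean and SD. The groups do not overlap for Mat1a over Mat2a (0.98) and Bhmt over Mtr (-0.96), and lie on each other for Shmt1 over Shmt2 (0.032).

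The serine hydroxymethyltransferases, which move a carbon from serine to folate, both had small differences of like size. Shmt2, the mitochondrial form, lay between 4.62 and 4.88 in metformin mice (median 4.77) and at 5.04, 5.02, 4.86 and 5.04 in CCl4 mice. CCl4 mouse 3 was low in its group and below metformin mouse 2. The difference of -0.24 ± 0.085, a 1.18-fold lower mean, passed narrowly (adjusted p = 0.0404 in limma) and was lost in 7 of the 10 fits without 1 mouse (highest adjusted p = 0.0943): those without metformin mouse 1, 4, 5 or 6 or CCl4 mouse 1, 2 or 4. It was also lost with normexp background correction (adjusted p = 0.0609) and in the fit that takes slide row as a covariate (adjusted p = 0.136).

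Shmt1, the cytosolic form, lay between 2.89 and 3.18 in metformin mice (median 3.04) and at 3.32, 3.34, 3.12 and 3.24 in CCl4 mice. Metformin mice 3 and 6 were above CCl4 mouse 3. Its difference of -0.21 ± 0.087 did not pass (adjusted p = 0.0752 in limma), and did with normexp (-0.28, adjusted p = 0.00835), median scaling (-0.27, adjusted p = 0.0367) and quantile normalization (-0.30, adjusted p = 0.0147). The second Shmt1 probe gave -0.23. The ratio of Shmt1 to Shmt2 differed by 0.032 ± 0.063 (exact permutation p = 0.624, adjusted p = 0.624), and its sign turned with normexp (-0.071). A call for 1 form and not the other is thus no difference between them.

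From mouse to mouse some members moved together and others apart: after the group means were subtracted, Pearson's r between members over the 10 mice ran from -0.75 (Cth and Pemt) to 0.71 (Gnmt and Ahcy), with -0.73 for Mat1a and Bhmt. These values share arrays and their scaling and are a description. In the metformin group mouse 1 was lowest for Gnmt, Bhmt, Shmt1 and Shmt2, mouse 4 for Mat1a, Cth and Ahcy, and mouse 2 for Cbs and Pemt. In the CCl4 group mouse 4 was lowest for Mat1a, Gnmt, Cth and Ahcy, mouse 3 for Bhmt, Cbs, Shmt1 and Shmt2, and mouse 1 for Pemt. Metformin mice 4 and 6 held the highest Bhmt and Cbs values of their group and the lowest Mat1a values. The SD was larger in metformin than in CCl4 mice for 6 members and smaller for Gnmt, Cth and Pemt.

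For each member the genes most like it were sought by Pearson's r over the 10 mice after the group means were subtracted, among 14523 genes. The nearest were Xpot for Mat1a (r = 0.957), Mknk2 for Gnmt (0.964), Slc30a7 for Bhmt (0.955), Psmc5 for Cbs (0.975), Nfatc1 for Cth (0.983), Sun1 for Ahcy (0.964), Pik3r2 for Pemt (0.966), Slc8a1 for Shmt1 (0.982) and Copg2 for Shmt2 (0.959). No member was among the 3 nearest of another. The second nearest of Cbs was Tdh (0.970), threonine dehydrogenase, and the second nearest of Ahcy was Gm4737 (0.958). With 10 mice and this many genes, high values of r arise for any gene, and they are given as a description.

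The reactions around the 9 enzymes showed changes in both directions. Of 102 listed neighbours 99 were tested, of which 24 were higher, 22 lower and 53 not called. That is 46.5% against 47.4% of all named genes, and the median difference was 0.032 against 0.10 over all features. After spike-in scaling 4 were higher and 50 lower. Of the higher neighbours given with values in the text, Slc25a32, Dnmt3a and Tdh kept that call after spike-in scaling, and all 12 lower ones given with values kept theirs. That scaling moves every difference down by a like amount, so a lower call that holds under it is no check on that call.

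**Figure D5:**
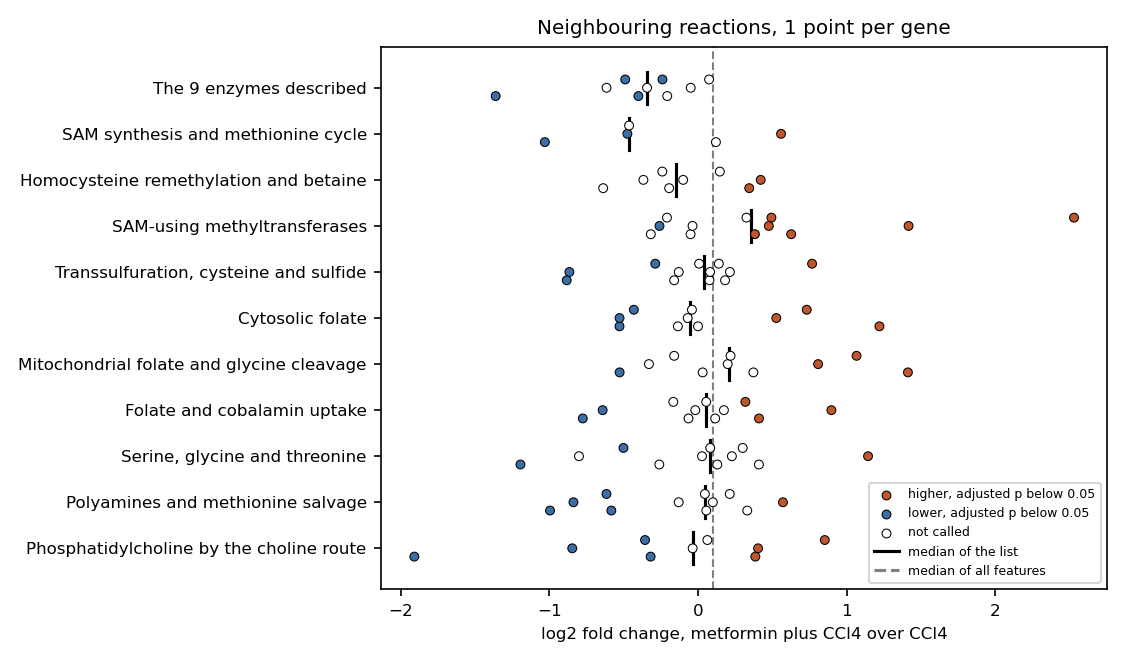
The x axis is the log2 fold change of metformin plus CCl4 over CCl4, with 1 point per gene and 1 line of points per list. Orange points were higher and blue points lower at an adjusted p below 0.05 in limma, white points were not called, black ticks are list medians and the dashed line is the median of all features (0.10). Called genes of both directions occur in 9 of the 10 neighbour lists, and none of the 9 enzymes described was called higher.

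By list, the share called in either direction, 47.4% over all named genes, was 60% for SAM synthesis, 25% for remethylation and 58.3% for SAM-using methyltransferases. It was 33.3% for cysteine and sulfide, 60% for cytosolic and 40% for mitochondrial folate, and 45.5% for folate and cobalamin uptake. For serine and glycine it was 27.3%, for polyamines and salvage 45.5%, and for the choline route 77.8%. Among SAM-using methyltransferases 6 were higher, 1 lower and 5 not called of 12. Dnmt3a, a de novo DNA methyltransferase, rose by 2.53 ± 0.17 (1 kept probe), Hnmt, which methylates histamine, by 0.49 (0.14 by its other kept probe) and Tpmt, which methylates thiopurines, by 0.38. Hnmt and Tpmt turned sign after spike-in scaling (-0.056 and -0.17). Nnmt, which uses SAM to methylate nicotinamide, was named after its value was seen. It rose by 1.42 ± 0.43 (adjusted p = 0.0215 in limma; 1.21 by its other probe), and lost the call without CCl4 mouse 3 (1.28, adjusted p = 0.0626) or CCl4 mouse 4 (1.04, adjusted p = 0.0600).

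Of 8 remethylation and betaine genes 2 were higher (Mtr and the choline dehydrogenase Chdh), 0 lower and 6 not called. Of 12 genes of cysteine and sulfide metabolism 3 were lower, 1 higher and 8 not called. Gclc, the catalytic subunit of the first enzyme of glutathione synthesis, fell by 0.88 ± 0.18 and Ethe1, the mitochondrial persulfide dioxygenase, by 0.87 ± 0.12. Sqor, the sulfide oxidising enzyme upstream of Ethe1, rose by 0.77 ± 0.098. These 3 genes were named because their groups did not overlap, so that trait was fixed by the choice. In the list 3 of 12 genes had such groups, where 35.9% of all named genes did.

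In cytosolic folate metabolism 3 of 10 genes were higher and 3 lower. Mthfs, which recycles formyl folate, rose by 0.73, and Gart, of purine synthesis, fell by 0.53. In the mitochondrial folate list 3 of 10 were higher and 1 lower. Mtfmt, which formylates the initiator transfer RNA, rose by 0.81, and the folate carrier Slc25a32 was at 1.41 by the probe used but at -1.09 by its other kept probe, so its direction depended on the probe. Of 11 genes of folate and cobalamin uptake 3 were higher and 2 lower, with the transcobalamin receptor Cd320 at 0.90, Mmadhc, of cobalamin processing, at 0.41 (-0.14 after spike-in scaling), and the folate receptor Folr1 at -0.77. Folr1 was dim, at an intensity of 16 to 56 over all mice. Its difference shrank to as little as -0.33 across 23 alternative settings, and 1 of them lost the call (adjusted p = 0.0506 in limma).

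Of 11 genes of serine, glycine and threonine metabolism 1 was higher and 2 lower. Agxt, the alanine-glyoxylate aminotransferase of hepatocytes, fell by 1.19 ± 0.13, and Tdh rose by 1.14 ± 0.16. Tdh was dim, at an intensity of 15 to 22 in CCl4 and 32 to 46 in metformin mice. Its difference went down to 0.27 across 23 alternative settings, and 1 of them lost the call (adjusted p = 0.0819 in limma). Of 11 genes of polyamines and methionine salvage 4 were lower and 1 higher. Mtap and Adi1, enzymes of the salvage of methionine, fell by 0.995 and 0.58, and Odc1, the first enzyme of polyamine synthesis, fell by 0.62 (its other kept probes were at -1.42 and -0.75). Of 9 genes of the choline route to phosphatidylcholine, which runs beside Pemt, 4 were lower and 3 higher. The choline kinases Chka and Chkb fell by 1.91 ± 0.24 and 0.85 ± 0.12, and Cept1, which joins the choline head group to the lipid, rose by 0.85. All 3 kept Chka probes were lower, between -2.32 and -1.91. Further called neighbours are named after their values were seen. They were Amt, Apip, As3mt, Chdh, Ggh, Icmt, Mmachc, Pcyt1a and Pcyt2 among the higher genes, and Atic, Chpt1, Folr2, Gldc, Gss, Pcmt1, Sdsl, Selenoi, Srm and Tyms among the lower ones.

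Markers of liver cells were also read, and their part in the member differences was not tested. The share called in either direction, 47.4% over all named genes, was 30% for hepatocyte, 33.3% for periportal and 63.6% for pericentral markers. It was 61.5% for stellate cell, 66.7% for bile duct, 41.7% for macrophage, 60% for neutrophil and 40% for endothelial markers. For T, NK and B cell markers it was 0%, and for proliferation genes 80%. Of 20 hepatocyte markers 5 were lower and 1 higher, with a mean log2 level of 8.77 to 9.07 across metformin mice against 9.03 to 9.28 across CCl4 mice. Tat and Fga fell by 1.36 and 1.25, while albumin (Alb) differed by -0.32 ± 0.13 without passing (adjusted p = 0.0617 in limma). Across 23 alternative settings Tat kept its call. The Fga difference shrank to as little as -0.48, and 1 setting lost its call (adjusted p = 0.0812 in limma). The 1 higher hepatocyte marker, named after its value was seen, was Asgr1 at 0.43. Of 12 periportal markers 2 were higher and 2 lower (6.92 to 7.25 against 7.11 to 7.46), with Cps1 at -0.75 and Hsd17b13 at 0.34, the latter at -0.21 after spike-in scaling and -0.12 by the mean of its probes. Without 1 mouse the periportal counts ranged from 0 to 2 higher and from 1 to 4 lower, and Hsd17b13 lost its call without metformin mouse 1 or CCl4 mouse 1, 2 or 3 (highest adjusted p = 0.0690 in limma). Of 11 pericentral markers 5 were higher and 2 lower (5.03 to 5.36 against 4.56 to 4.88), with Tbx3 at 2.17 and Glul at 1.05. The 2 lower ones, named after their values were seen, were Cyp1a2 at -1.21 and Rhbg at -0.63. Probes were kept if enough arrays of 1 group showed them well above background, so no tested marker could be below background on all arrays. A marker could still be dim in the other group. Named after their values were seen, Top2a, Epcam and Cxcr2, all called lower, were well above background on 0, 1 and 2 of the 6 metformin arrays. The sizes of such differences rest on dim signals in that group.

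Stellate cell markers had 8 lower and 0 higher of 13 (mean log2 level -0.79 to -0.063 against -0.033 to 0.67), with Reln at -1.59 and Des at -1.28. Bile duct markers had 5 lower and 1 higher of 9 (-2.59 to -1.90 against -2.001 to -1.21), with Krt7 at -1.14 and Cftr at 0.80, and 3 lower without CCl4 mouse 3. Macrophage markers had 5 lower of 12 (1.58 to 2.30 against 2.21 to 2.67), with C1qb at -1.22 and Cd68 at -0.70, and neutrophil markers 6 lower of 10 (-1.50 to 0.56 against -0.15 to 0.98), with Retnlg at -1.89 and Ngp at -1.82, and 2 lower without CCl4 mouse 1. Endothelial markers had 3 lower and 1 higher of 10 (0.31 to 1.05 against 0.88 to 1.19), with Vwf at -1.28 and Pecam1 at -0.88, and T, NK and B cell markers 0 of 7 called in limma (-0.23 to 0.37 against -0.0070 to 0.18). The 1 higher endothelial marker, named after its value was seen, was Erg at 1.38. Proliferation genes had 7 lower and 1 higher of 10 (-2.27 to -1.75 against -1.22 to -1.01), with Mcm5 at -1.23 and Ccna2 at -1.57, and 2 higher without CCl4 mouse 4. With all mice the higher one, named after its value was seen, was Pcna at 0.51. Of the T, NK and B cell markers 1 was higher without metformin mouse 6.

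A pair of regulatory programmes known to act on these enzymes was also read. The share called in either direction was 66.7% for the clock list and 11.1% for the ATF4 and stress list, against 47.4% of all named genes. Of 15 clock genes 4 were higher and 6 lower (1.06 to 1.498 against 1.30 to 1.97), with Nr1d1 at -2.02 and Per3 well above background on all 6 metformin arrays and on 0 of the 4 CCl4 arrays. The time of day of tissue collection is not given in the sources used here. Of 9 genes of the ATF4 and stress response 1 was higher and 0 lower (1.25 to 2.12 against 1.79 to 2.09). That gene was Fgf21, at 1.92 ± 0.64 (adjusted p = 0.0309 in limma), a call lost in 6 of the 10 fits without 1 mouse (metformin mouse 1, 3, 5 or 6 or CCl4 mouse 2 or 3; highest adjusted p = 0.0877). In the fits without metformin mouse 1, 3, 4 or 5, 1 gene of the list was lower. The part of either list in the member differences was not tested.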

How the data were processed

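Liver RNA of 6 metformin plus CCl4 and 4 CCl4 mice was hybridised to Agilent 1-colour arrays, 1 array per mouse; groups and mouse numbers come from the labels. Per the labels, 100 ng of RNA per sample was labelled, with integrity numbers above 8. The deposited files hold spot intensity on a linear scale from Agilent Feature Extraction 10.7.3.1, per the file headers, with background subtracted and no normalization between arrays. The authors also deposited log2 values of 4595 probes, quantile-normalized and limited by a false discovery rate and a fold change, per the file headers; the test is not given in the sources used here.

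The 75th percentile of each array (237 to 363 in intensity) was subtracted on the log2 scale. Between 51.2% and 54.9% of probes per array were well above background; the number of arrays limits the precision. Irregular spots were left out, spots of a probe averaged, and a probe was kept if 75% or more of the arrays in 1 group showed it well above background (29576). Accessions were matched to RefSeq symbols of GRCm38.p6 (28664 of 55681 probes), used for names and promoter windows; the arrays' grid names another build, so no gene coordinates were taken for probes. A gene was read by its kept probe with the highest mean over all 10 arrays.

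Groups were compared with limma 3.58.1 in R 4.3.3 (lmFit, eBayes, two-sided, Benjamini-Hochberg over 22184 features, threshold 0.05), and ratios with an exact permutation test; the scripts were tested on simulated data. The members and lists were chosen with earlier results of these data known. Named beside the members are, per neighbour list, up to 3 genes with the smallest adjusted p among those called with groups that do not overlap, the ratio partners, the 2 called genes with the smallest adjusted p per marker list, and the 3 genes most like each member. A gene that this rule would name is not reported here. Alternatives covered background correction (normexp, offset 50, on median signals, since the files hold no mean), scaling, filter, probe choice, irregular spots, array weights, slide row, mouse number, variance trend and leaving out each mouse; the member probes in place of the brightest were added after seeing the data. Whether same-numbered mice deviate together was checked. Figures were drawn with matplotlib 3.10.9.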

Additional observations from a re-analysis of the deposited data

Results flagged for a closer look

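In 24 groups checked (the 9 enzymes, Mat2a, Mtr and Bhmt2 in each group of mice), 3 held a mouse far from the others, where chance gives about 1 in 20. For Shmt2, CCl4 mouse 3 was lowest at 4.86, and the nearest of its group was at 5.02. For Mat2a, metformin mouse 5 was highest at 6.33, with the next at 5.53, and CCl4 mouse 4 was lowest at 6.06, with the next at 6.66. Mat2a stayed lower with metformin without any 1 of the 10 mice, at -1.20 to -0.94 on the log2 scale (adjusted p = 6.29e-04 to 0.0175 in limma).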

How the results depend on the processing

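Cth stayed lower in all 25 alternatives (difference -1.91 to -1.09), and called in limma in each but the authors' deposited table, which was not tested. As stated above, that table and spike-in scaling are no check on a lower Cth. Mouse numbers do not pair the samples: same-numbered mice correlated at -0.14, -0.12, 0.085 and -0.0034 in their deviations, and no mouse matched its own number best. With the replicate block 1 member was lower (Cth), Gnmt being at -0.41 (adjusted p = 0.0506), Cbs at -0.55 (0.0746) and Shmt2 at -0.22 (0.207), and 2609 named genes were higher in place of 4024. Spike-in scaling gave 552 named genes higher and 6600 lower, 4 neighbours higher and 50 lower, and 9 members lower, with Mat1a at -0.60, Bhmt at -1.17, Ahcy at -0.89, Pemt at -0.48 and Shmt1 at -0.76; it turned Mmadhc (-0.14), Mtr (-0.21), Hnmt (-0.056), Tpmt (-0.17) and Hsd17b13 (-0.21; -0.12 by the mean of a gene's probes). Normexp put Shmt1 at -0.28, Shmt2 at -0.21 and the ratio of Shmt1 to Shmt2 at -0.071. Median scaling put Bhmt at -0.68, Shmt1 at -0.27 and Shmt2 at -0.30; quantile normalization put Bhmt at -0.72, Shmt1 at -0.30, Pemt at -0.072 and the ratio of Gnmt to Pemt at -0.41. Without a filter, which adds features to the adjustment, Shmt2 was at -0.24 (adjusted p = 0.0920). With slide row as a covariate Mat1a was at 0.057, Gnmt at -0.38, Pemt at -0.057, Shmt1 at -0.31, Shmt2 at -0.24 and Bhmt2 at 0.0025. Slide row 1 alone, with 2 metformin mice, gave the same values for Mat1a (0.057), Gnmt (-0.38), Pemt (-0.057), Shmt2 (-0.24) and Bhmt2 (0.0025), Bhmt at -0.93, 2365 named genes higher and 1850 lower, and 15 neighbours higher. Its ratios were 1.27 (Mat1a to Mat2a), -1.01 (Bhmt to Mtr), -0.33 (Gnmt to Pemt), 0.33 (Cbs to Cth) and -0.077 (Shmt1 to Shmt2), whose exact test cannot pass with so few mice. A variance trend put Shmt1 at -0.21 (adjusted p = 0.0480). Bhmt was at -1.02 by 1 other probe and Pemt at -0.055 by another. The mean of a gene's probes put the ratio of Bhmt to Mtr at -0.76, and limma put that of Cbs to Cth at 0.87 (adjusted p = 0.0256). The cause of these shifts was not tested.

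Without 1 mouse, the members called lower ranged from 2 to 4 (2 without CCl4 mouse 1 or 2), Mat1a from -0.13 to 0.035 (0.035 without metformin mouse 4, 0.0035 without mouse 6), Bhmt from -0.75 to -0.48, Cbs from -0.56 to -0.39 and Shmt2 from -0.28 to -0.21. The ratios ranged from 0.88 to 1.07 for Mat1a to Mat2a, -1.06 to -0.87 for Bhmt to Mtr, -0.60 to -0.39 for Gnmt to Pemt and 0.75 to 1.10 for Cbs to Cth; fewer splits of the arrays raise the lowest p these allow.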
